A study of Mus musculus with 31 samples.

Results

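The genes described here are 36 genes of G2 and mitosis, taken as a fixed list of symbols: cyclins and their kinase, mitotic kinases, the spindle checkpoint, the chromosomal passenger complex, kinesins and spindle proteins, centromere proteins, condensin and other chromosome proteins, and a pair of transcription factors. The list was drawn up by function, with earlier results of these data known. All 36 symbols were found among the 29267 gene identifiers of the files, and all 36 were among the 14914 genes that had enough counts to be tested.

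Most of these genes are transcribed in G2 and silent in resting and early G1 cells, so their RNA in a culture follows the share of cells that are dividing. Cyclin B and its kinase start mitosis, the kinases of the Polo and Aurora families build the spindle, and the checkpoint holds the anaphase-promoting complex back until all chromosomes are attached. Their promoters are known for a pair of short elements, the cell cycle genes homology region (CHR), read by the DREAM complex and by B-Myb with FoxM1, and CCAAT boxes, read by NF-Y. In fibroblasts that are being turned into pluripotent cells, fast division is a known early event, and embryonic stem cells divide with short gap phases.

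RNA was measured in 31 libraries of mouse cells of the strain 129/OG2. Fibroblasts (MEF, passage 2) without treatment gave 2 libraries and embryonic stem cells (ESC) gave 2. The 12 reprogramming groups had 2 libraries each: all carried the reprogramming factors Oct4, Klf4, Sox2 and Myc (OKSM), together with a virus labelled Flag, taken as the control, or Tet1CD, were kept with DMSO, vitamin C (Vc) or DKG, and were taken at day 3 or day 8. MEF without virus kept for 3 days with DMSO, Vc or DKG gave 1 library each. The labels do not spell out DKG or say what Tet1CD contains, give no doses, and name 2DG in the title and DKG in the treatment field of 1 of the single MEF libraries. The 2 libraries of a group are numbered 0824 and 0826 without an explanation of the numbers. Whether they are separate cultures is not stated, and the tests below therefore cover the spread between libraries, which may be technical. The ESC libraries are titled 0822 (passage 17) and 0819 (passage 19), but their files carry the numbers the other way round.

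The libraries held between 3953297 and 6818060 expected counts. CPM are counts scaled to the library size times the TMM scaling factor of the library. Tet1 lay between 184 and 687 CPM in the Tet1CD libraries and between 4.38 and 32.6 in the Flag libraries. Reads of introduced and endogenous Tet1 cannot be told apart. Markers of other cell types were seen in some libraries. The summed level of 13 macrophage markers (Csf1r, Adgre1, C1qa and others) was 2954 CPM in MEF 0824 and 640.1 in MEF 0826, and none of them was at 0 in either. It was 1319 in the day 8 library of Tet1CD with Vc numbered 0824 and 17.49 in its pair. Fibroblast markers summed to 16150 CPM in ESC 0822 and to 4576 in ESC 0819, and Col1a1 was 4376 CPM in the first and 28.97 in the second. In reprogramming cells they summed to between 3653 and 10970, against 53130 and 56900 in MEF, and pluripotent cell markers to between 8.481 and 397, against 3453 and 4645 in ESC.

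Promoter sequences show what the list shares that its choice did not use. In RefSeq's promoter table (GRCm38.p6, 250 bases before to 50 bases after each start), 29 of the 36 genes had 30 promoters. The 150 bases before the start are printed for 4 core mitotic genes of the list whose windows hold both CHR and CCAAT letters, with the letters TTTGAA (CHR) and CCAAT, or their reverse complements, in capitals: Ccnb2 (chr9:70421555-70421704, minus strand), Cdc20 (chr4:118437344-118437493, minus strand), Cdk1 (chr10:69352913-69353062, minus strand) and Plk1 (chr7:122159285-122159434, plus strand).
Ccnb2: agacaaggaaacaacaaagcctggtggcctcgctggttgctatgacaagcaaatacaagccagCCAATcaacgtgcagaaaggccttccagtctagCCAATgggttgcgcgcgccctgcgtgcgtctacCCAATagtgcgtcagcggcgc
Cdc20: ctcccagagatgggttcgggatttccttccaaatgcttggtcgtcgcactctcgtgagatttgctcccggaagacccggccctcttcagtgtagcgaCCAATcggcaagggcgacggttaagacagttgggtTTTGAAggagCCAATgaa
Cdk1: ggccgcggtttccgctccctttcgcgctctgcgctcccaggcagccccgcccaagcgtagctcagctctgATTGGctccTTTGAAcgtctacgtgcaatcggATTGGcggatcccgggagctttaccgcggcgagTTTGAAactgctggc
Plk1: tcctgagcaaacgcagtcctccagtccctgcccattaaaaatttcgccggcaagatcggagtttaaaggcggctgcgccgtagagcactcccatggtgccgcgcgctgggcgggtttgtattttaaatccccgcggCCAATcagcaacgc

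The 3 CCAAT boxes of Ccnb2, which encodes a mitotic cyclin, begin at bases -87, -54 and -21 from the start (the first base of the transcript is 0). Of its 2 CHR matches 1 lies just past the start, at bases 4 to 9, and 1 at bases -167 to -162, both outside the printed stretch. Cdc20, the activator of the anaphase-promoting complex, has its CHR between 2 CCAAT boxes, and Cdk1 has 2 CHR matches, each 3′ of a CCAAT box. Plk1, a Polo-like kinase, has 1 CCAAT box at bases -14 to -10 and its CHR match at bases 30 to 35, past the printed stretch. Of the 30 promoters, 22 (73.3%) held TTTGAA on either strand, against 17.9% of all 32851 promoters of the table. CCAAT was in 23 (76.7%), against 37.4%, and 14 (46.7%) held 2 or more, against 11.7%. Both sets of letters were in 20 (66.7%), against 6.95%. The E2F letters TTTCGCGC or TTTGGCGC were in 2 (6.67%, Cdk1 and Ncapd2), against 0.813%. Of the 28 CHR matches, 20 (71.4%) began within 50 bases of the start, against 25.3% of the CHR matches in all promoters. The 2 starts of Prc1 hold the same element, and with 1 promoter a gene it was 19 of 27. The promoters of Birc5, Mad2l1, Mybl2, Ncaph and Nusap1 held none of the 3 motifs in these windows. Those of Ccnb1, Bub1 and Cenpe held CCAAT but no CHR match, so Ccnb1 is not among the genes printed. A match describes letters only, and the 7 genes without an entry, Foxm1 among them, were not searched.

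**Figure D1:**
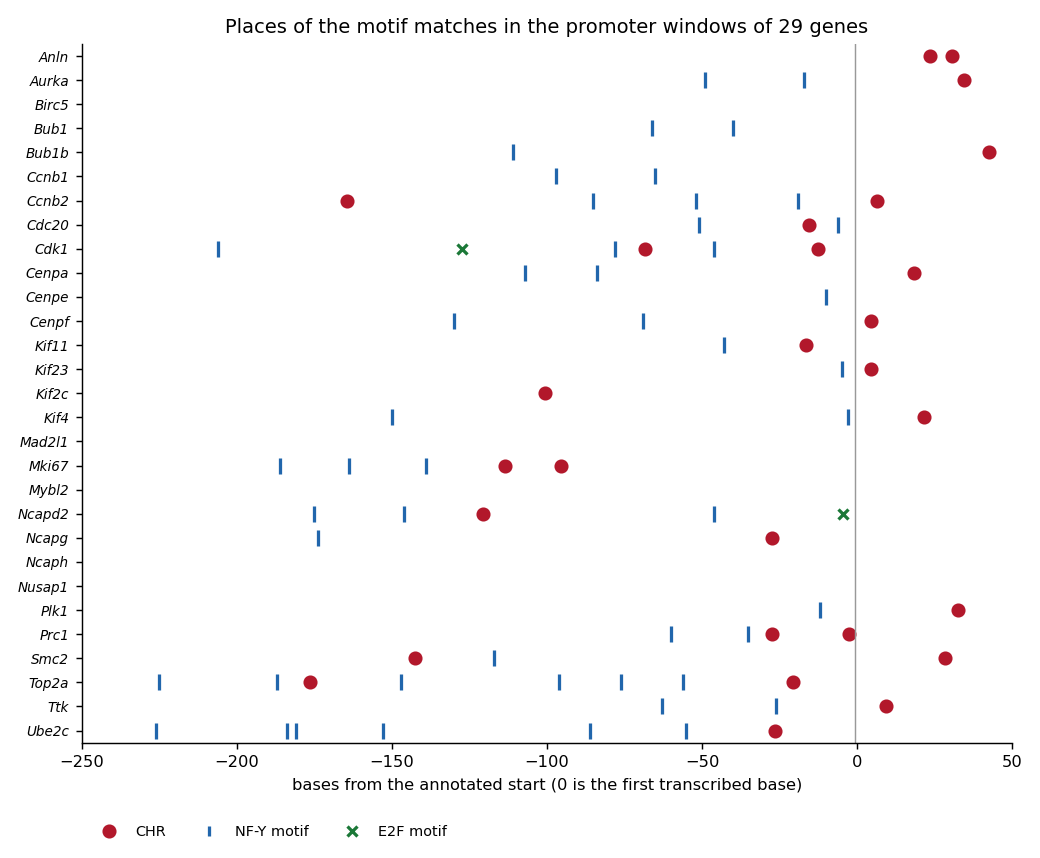
Places of the CHR, NF-Y (CCAAT) and E2F matches in the promoter windows of the 29 genes in the RefSeq table, by distance in bases from the annotated start. Each mark is 1 match, and the 2 starts of Prc1 share a row. Of the 28 CHR matches 20 begin within 50 bases of the start, 1 element of Prc1 being counted from both of its starts.

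Compared per transcript length (the deposited TPM, which divide by transcript length), the mean over the 12 day 3 libraries ran from 312 TPM for Cdk1, 254 for Top2a and 240 for Ube2c down to 26 for Cenpe and 20.1 for Cenpf, large proteins of the kinetochore. All further levels are CPM, which compare libraries and not genes. The lowest rounded count of any of the 36 genes in a library was 63 (Mybl2) and the highest 3345 (Top2a).

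Taken over all 36 genes, levels were above MEF at day 3, and at day 8 lower with Flag than with Tet1CD. The median over the genes, as log2 over the mean of untreated MEF, was 0.77 to 1.17 in the 12 day 3 libraries, -0.09 to 0.37 in the 6 day 8 Flag libraries, 0.47 to 0.99 in the 6 day 8 Tet1CD libraries, and 1.39 and 1.44 in ESC. The day 8 Flag and day 8 Tet1CD libraries did not overlap in this median, and the day 3 libraries did not overlap with the day 8 Flag libraries. In whole cultures, fewer dividing cells and less RNA per cell cannot be told apart.

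**Figure D2:**
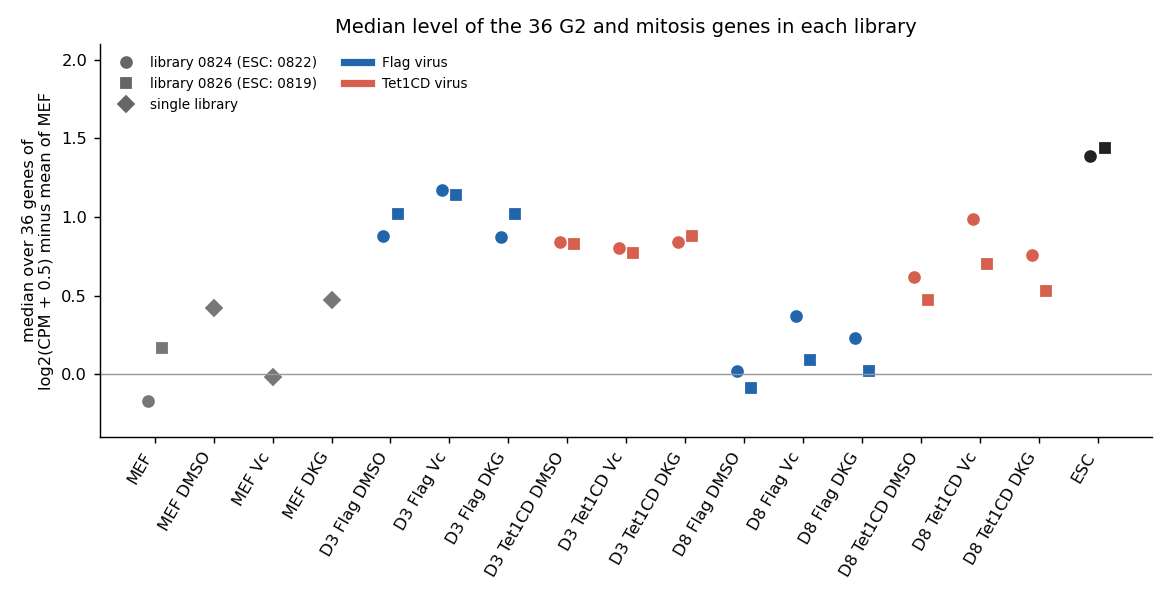
Median over the 36 genes of log2(CPM + 0.5) minus the mean of the 2 untreated MEF libraries, by group, with 1 point per library. Day 3 libraries lie between 0.77 and 1.17, day 8 Flag libraries between -0.09 and 0.37 and day 8 Tet1CD libraries between 0.47 and 0.99.

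**Figure D3:**
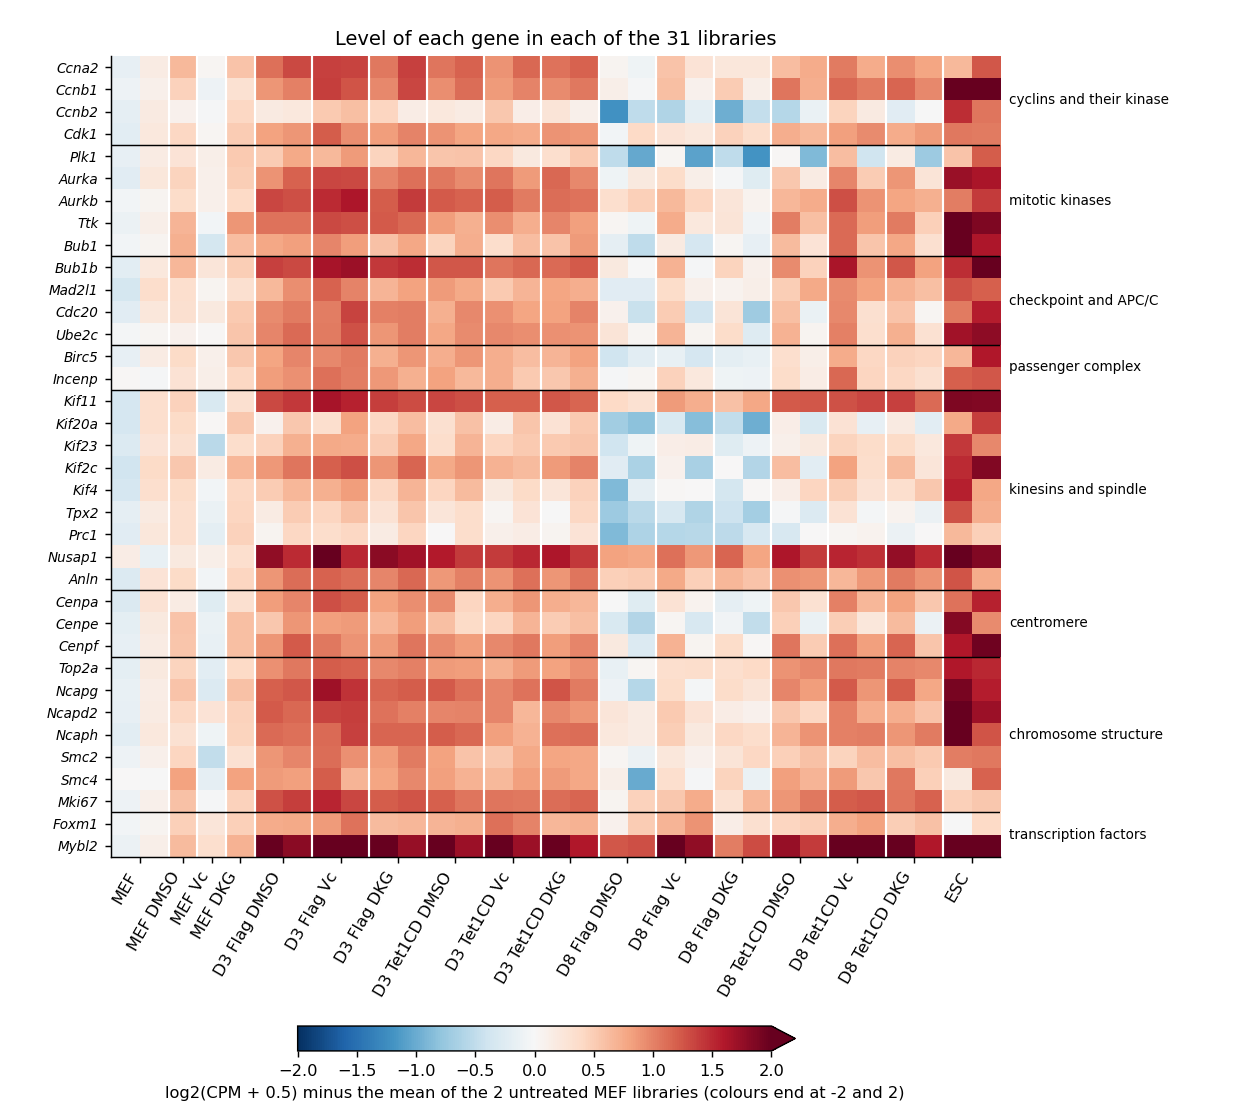
Each gene (rows, by role) in each of the 31 libraries (columns, the 2 libraries of a group side by side, the lower number first), as log2(CPM + 0.5) minus the mean of untreated MEF. Mybl2 and Nusap1 are among the genes that lie above MEF in every reprogramming library. Kif20a, Ccnb2, Tpx2 and Prc1 are among those that lie below the MEF mean in all 6 day 8 Flag libraries.

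At day 3, 30 of the 36 genes were higher than in untreated MEF (edgeR's quasi-likelihood test, adjusted p under 0.05, mean of the 6 groups of that day), beside 20.1% of all genes tested, and none was lower. The median log2 fold change was 0.91, against 0.05 over all genes, and all 36 values were above 0, from 0.22 (Prc1) to 2.03 (Mybl2). For 31 genes every day 3 library lay above both MEF libraries, beside 24.6% of all genes.

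Among the cyclins and their kinase, 3 of 4 rose. Ccnb1 (cyclin B1; ENSMUSG00000041431, mm10 chromosome 13, 100778650 to 100786570) was 61.85 and 71.31 CPM in MEF 0824 and 0826. In the 12 day 3 libraries it lay between 120.7 and 173.4, with a median of 133.2, above both MEF libraries in each, a log2 fold change of 1.06 ± 0.15 (SE; adjusted p = 3.33e-05 by edgeR). Cdk1, the kinase that cyclin B activates, was 61.85 and 82.48 CPM in MEF and 119.9 to 166.2 at day 3 (median 132), and rose by 0.88 ± 0.13. Ccna2, cyclin A2, rose by 1.17 ± 0.16. Ccnb2 was 34.79 and 45.1 in MEF and 42.71 to 60.66 at day 3, so the libraries overlapped, and it was not called (0.29 ± 0.20, adjusted p = 0.27).

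Of the 5 mitotic kinases 4 rose. Aurkb, the kinase of the passenger complex, was 24.7 and 26.61 CPM in MEF and 53.03 to 79.76 at day 3, a log2 fold change of 1.28 ± 0.14. Bub1, a checkpoint kinase at the kinetochore, was 31.14 and 33.93 in MEF and 41.59 to 64.63 at day 3 (0.70 ± 0.21, adjusted p = 0.0133 by edgeR), and Ttk (Mps1), which starts the checkpoint signal, was 18.9 and 22.55 and then 34.14 to 52.2 (1.02 ± 0.18). Aurka, the kinase of the spindle poles, rose by 1.06 ± 0.19. Plk1 was 55.19 and 68.87 in MEF and 70.87 to 111.9 at day 3. Its libraries did not overlap with MEF, but it was not called (0.54 ± 0.32, adjusted p = 0.188), and with the library number as a term within each day it was (0.54 ± 0.15, adjusted p = 0.00582). All 4 genes of the checkpoint and the anaphase-promoting complex rose: Bub1b (BubR1) by 1.33 ± 0.23, Ube2c, its ubiquitin-conjugating enzyme, by 0.99 ± 0.21, Cdc20 by 0.95 ± 0.28 and Mad2l1 (Mad2) by 0.76 ± 0.15. Cdc20 was 53.9 and 73.54 CPM in MEF and 102.9 to 161.4 at day 3.

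Both passenger complex genes rose, Birc5 (survivin) from 39.09 and 48.76 to 67.54 to 90.47 CPM (0.82 ± 0.18) and Incenp by 0.79 ± 0.15. Of the 9 kinesins and spindle proteins 5 rose: Nusap1, which bundles spindle microtubules, by 1.61 ± 0.17, Kif11 (Eg5), which separates the poles, from 41.02 and 66.23 to 116.9 to 163.9 CPM (1.30 ± 0.14), Anln (anillin) by 1.00 ± 0.16, Kif2c by 0.90 ± 0.25 and Kif23 by 0.57 ± 0.15. The other four were not called: Kif4 (0.48 ± 0.21), Kif20a (0.41 ± 0.23), Tpx2 (0.32 ± 0.17) and Prc1 (0.22 ± 0.14). Prc1, which crosslinks the midzone of the anaphase spindle, was 91.7 and 127 CPM in MEF and 108.9 to 144.9 at day 3, so the libraries overlapped.

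All 3 centromere genes rose. Cenpa, the centromeric histone H3, was 23.19 and 34.74 CPM in MEF and 38.51 to 70.37 at day 3 (0.85 ± 0.18), Cenpf rose by 0.97 ± 0.21 and Cenpe by 0.64 ± 0.23. The 7 chromosome proteins rose as well, from Smc4 (0.83 ± 0.27) and Smc2 (0.84 ± 0.11), the condensin ATPases, to Ncapg (1.23 ± 0.18), a condensin I subunit. Mki67, the Ki-67 protein of mitotic chromosome surfaces, was 208.1 and 237.7 CPM in MEF and 462.8 to 637.7 at day 3 (median 512.9; 1.22 ± 0.13, adjusted p = 1.82e-06 by edgeR).

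Both transcription factors rose. Mybl2 (B-Myb; ENSMUSG00000017861, mm10 chromosome 2, 163054687 to 163084688), which is itself transcribed at the G1/S boundary, had the largest change of the 36. It was 13.53 and 15.85 CPM in MEF, and at day 3 lay between 45.57 and 84.51 with a median of 60.34 (2.03 ± 0.25). Foxm1 (ENSMUSG00000001517, mm10 chromosome 6, 128362967 to 128376146) was 68.08 and 73.34 in MEF and 109.4 to 152.8 at day 3 (0.80 ± 0.13).

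The level of untreated MEF sets these values. The number of genes called was 20 without MEF 0824, the library with the higher macrophage sum, and 28 without MEF 0826. In MEF kept for 3 days in medium the median over the 36 genes, against untreated MEF, was 0.42 with DMSO, -0.02 with Vc and 0.47 in the library whose compound is uncertain, each from 1 library. Mki67 was 335.1, 218.8 and 306.7 CPM in these libraries and Mybl2 22.93, 18.53 and 23.94, all below every day 3 library, as for 25 genes in all. The other 11 overlapped with day 3. Among them Prc1 was 136.8, 94.26 and 148.7 CPM, the last above every day 3 library, and Plk1 74.83, 66.75 and 88.72. The count of 25 was not made over all genes, so it cannot be set against their share.

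From day 3 to day 8, 35 of the 36 genes fell in the mean over the 6 arms, beside 10.7% of all genes tested that were lower at day 8. The median log2 fold change was -0.50, against 0.01 over all genes, and ran from -0.93 (Plk1) to -0.24 (Mybl2). Mybl2 alone was not called (± 0.11, adjusted p = 0.121 by edgeR), and it was called with the number as a term within each day (adjusted p = 0.0187). Among the role groups the median was -0.66 for the mitotic kinases, -0.64 for the checkpoint genes, -0.49 for the kinesins and -0.26 for the transcription factors. After Plk1 came Kif2c (-0.88 ± 0.13), a kinesin that takes microtubules apart at the centromere, Cdc20 (-0.78 ± 0.14) and Kif20a (-0.78 ± 0.12). Cdk1 fell by 0.36 on the log2 scale and Top2a, topoisomerase II of chromosome untangling, by 0.34. Without any 1 of the 24 libraries the count was 35. Markers of other cell types changed over the same step: 12 of 13 epithelial markers rose, and their sum went from 61.39 to 117.6 CPM at day 3 to 130.8 to 634.9 at day 8. Of 13 pluripotent cell markers 10 rose. Of all 14914 genes tested, 3736 were called in either direction over this step. The part of these markers in the fall was not tested.

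At day 8, 18 of the 36 were still higher than untreated MEF, beside 23.1% of all genes, and none was lower. The median was 0.38, against 0.07 over all genes, and 30 values were above 0. Mybl2 (1.79 ± 0.24), Nusap1 (1.24 ± 0.17), Kif11 (0.90 ± 0.14) and Mki67 (0.79 ± 0.12) were the highest, and Plk1 (-0.40 ± 0.30), Kif20a (-0.37 ± 0.22), Ccnb2 (-0.36 ± 0.19) and Prc1 (-0.33 ± 0.14) the lowest. With the number as a term within each day, 3 genes were lower than MEF, beside 28.1% of all genes: Plk1 (adjusted p = 0.00953), Kif20a and Prc1. Without MEF 0824, whose macrophage sum was 2954 CPM, the count of higher genes fell from 18 to 7. The part of the macrophage RNA in this was not tested. Against the single MEF libraries kept in medium, the median of the 36 at day 8 was 0.26, the same as over all genes.

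In the 6 arms taken singly, the medians with Flag lay below those with Tet1CD, while values of single genes overlapped. With the Flag virus all 36 values were below 0 in each medium, and 23 genes fell with DMSO (0.63% of all genes were lower), 19 with Vc (0.489%) and 4 with DKG (0.0738%), with medians of -1.03, -0.92 and -0.86. With the number as a term within each day these counts were 35 (3.37% of all genes), 32 (4.61%) and 31 (2.43%). With the Tet1CD virus edgeR called none of the 36 in any medium. The shares of all genes that were lower were 0.0134% with DMSO, 0.0469% with Vc and 0.0201% with DKG. The medians over the 36 were -0.30, -0.02 and -0.15. At an unadjusted p under 0.05 the counts of the 36 were 8, 0 and 1, and DESeq2 and limma called none. With the term within each day edgeR called 3 (Plk1, Ncapd2 and Ube2c), 0 and 1 (Plk1). The shares of all genes that were lower were then 1.17%, 2.11% and 1.02%. A missing call in the Tet1CD arms does not show that the genes were unchanged there.

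The arms rest on 2 libraries a day. Each library left out in turn took the count of genes that fell with Flag and DMSO from 23 to 8 (without either 0824 library), 3 (without day 3 0826) and 2 (without day 8 0826). With Flag and Vc it went from 19 to 0 (without day 3 0824 or day 8 0826), 3 (without day 3 0826) and 6 (without day 8 0824). With Flag and DKG it went from 4 to 1 (without day 3 0824) and to 0 (without any of the other three). The medians stayed between -1.15 and -0.77 in these fits, where the lone library is assumed to vary like those of the other groups.

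**Figure D4:**
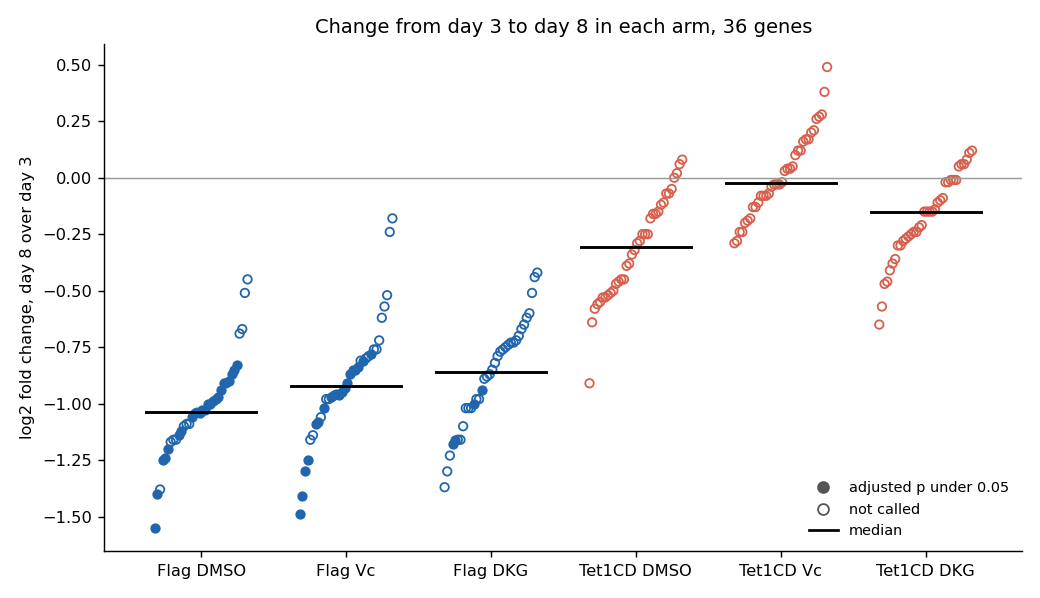
Log2 fold change of day 8 over day 3 for each of the 36 genes in the 6 arms, sorted within an arm. Filled points passed the test without a library term, and the bar is the median, which is -1.03, -0.92 and -0.86 with Flag and -0.30, -0.02 and -0.15 with Tet1CD.

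The values by library show the same split. Mki67 in the Flag cells was 536.4 and 581.1 CPM with DMSO at day 3 (0824, then 0826) and 230.8 and 307 at day 8, 637.7 and 559.2 with Vc and then 322.7 and 373.6, and 513.1 and 534.3 with DKG and then 275.9 and 353. All 6 Flag libraries of day 8 lay below all 6 of day 3. In the Tet1CD cells it was 512.6 and 466.7 with DMSO at day 3 and 410 and 464.4 at day 8, 466.3 and 462.8 with Vc and then 516.9 and 526.8, and 482.3 and 497.4 with DKG and then 468.6 and 505.2. With DMSO both day 8 libraries lay below both of day 3, with DKG the days overlapped, and with Vc both day 8 libraries lay above both of day 3.

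Ncapg (ENSMUSG00000015880, mm10 chromosome 5, 45669919 to 45700546) had the largest fall with Flag and DMSO, from 69.54 and 72.27 CPM to 28.09 and 20.09 (-1.55 ± 0.21, adjusted p = 0.00225 by edgeR). With Tet1CD and DMSO it was 71.42 and 65.36 at day 3 and 60.18 and 54.43 at day 8. Ccnb1 with Flag was 122.6 to 173.4 at day 3 and 65.16 to 100.8 at day 8, which do not overlap, and with Tet1CD 120.7 to 144 and then 110.6 to 149.3. Over the 36 genes, 34 had every Flag library of day 3 above every Flag library of day 8, beside 4.64% of all genes, all but Foxm1 and Mybl2. With Tet1CD this held for 0, beside 3.57% of all genes.

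At day 3 nearly all values were slightly lower with Tet1CD than with Flag. EdgeR called no gene between Tet1CD and Flag, beside 0.0201% of all genes that were lower with Tet1CD, with 9 of the 36 at an unadjusted p under 0.05 and none by DESeq2 or limma. The median was -0.20, with 35 values below 0. Ttk had the lowest value (-0.36 ± 0.13, adjusted p = 0.349). It was the 1 gene called with the number as a term within each day (adjusted p = 0.0102, 0.731% of all genes lower). For 6 genes (Top2a, Mki67, Bub1b, Ttk, Ncapd2 and Smc2) every Flag library lay above every Tet1CD library, beside 0.671% of all genes.

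At day 8, 25 of the 36 genes were higher with Tet1CD than with Flag, beside 1.53% of all genes, and 34 were with the number as a term within each day, beside 5% of all genes. No gene was lower. All 36 values were above 0, with a median of 0.60 against -0.01 over all genes. In each of the 6 pairs of libraries of 1 medium and number, between 34 and 36 of the 36 genes were higher with Tet1CD, and at day 3 between 2 and 15 were. For 18 genes every Tet1CD library of day 8 lay above every Flag library, beside 1.64% of all genes. The pluripotent cell markers differed in the same direction in each pair of libraries: their sum was 129.6 and 59.98 CPM with Tet1CD and DMSO against 42.13 and 33.23 with Flag, 397 and 197.6 against 291.9 and 86.23 with Vc, and 182.8 and 91.31 against 56.62 and 41.3 with DKG. Of these 13 markers 1 was called (median 2.00). The epithelial sum was 130.8 to 411.9 with Tet1CD and 201 to 634.9 with Flag. The part of either in the difference was not tested.

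All 4 cyclin and kinase genes were higher at day 8 with Tet1CD. Ccnb1 was 65.16 to 100.8 CPM with Flag (median 71.95) and 110.6 to 149.3 with Tet1CD (median 138.6), which do not overlap, a log2 fold change of 0.78 ± 0.11 (adjusted p = 0.000535 by edgeR). Cdk1 was 68.49 to 98.46 with Flag and 112.4 to 138.5 with Tet1CD (0.51 ± 0.09, adjusted p = 0.00589), Ccna2 differed by 0.60 ± 0.11, and Ccnb2, 16.8 to 34.64 against 26.65 to 53.92, by 0.60 ± 0.15. Of the mitotic kinases Bub1 (22.67 to 36.69 against 39.56 to 71.89 CPM, 0.80 ± 0.15), Ttk (0.69 ± 0.13), Aurka (0.52 ± 0.13) and Aurkb (0.49 ± 0.10) were called. Plk1 was 26.75 to 63.56 with Flag and 33.26 to 95.02 with Tet1CD, and it was called with the number term (0.52 ± 0.11, adjusted p = 0.00939) and not without it (0.53 ± 0.23, adjusted p = 0.359). Its libraries split by number: in each of the 6 groups of day 8 the 0824 library was the higher.

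Of the checkpoint genes Bub1b (0.78 ± 0.16) and Mad2l1 (0.69 ± 0.11) were called, while Cdc20 (38.44 to 89.85 against 57.46 to 122.4 CPM, 0.48 ± 0.20, adjusted p = 0.317) and Ube2c (0.34 ± 0.15) were not. With the number term both were, Cdc20 by 0.50 ± 0.10 (adjusted p = 0.00648). Birc5 was 33.01 to 39.48 with Flag and 47.63 to 73.49 with Tet1CD (0.67 ± 0.13), without overlap. The spindle genes called were Kif2c (0.75 ± 0.18), Kif20a (0.68 ± 0.17), Kif11 (0.66 ± 0.09), Nusap1 (0.63 ± 0.11), Prc1 (0.53 ± 0.11) and Tpx2 (0.53 ± 0.12), and Cenpf (0.70 ± 0.15) and Cenpa (0.69 ± 0.13) at the centromere. Kif11 was 64.39 to 93.97 CPM with Flag and 114.9 to 134.8 with Tet1CD, and Prc1 58.35 to 86.23 and 85.99 to 113.

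Among the chromosome proteins 6 of 7 were called, and Ncapg had the largest value of the 36: 20.09 to 39.24 CPM with Flag and 51.87 to 71 with Tet1CD (0.95 ± 0.12, adjusted p = 0.000256 by edgeR). Top2a differed by 0.76 ± 0.08 and Mki67, 230.8 to 373.6 against 410 to 526.8 CPM, by 0.64 ± 0.09. Smc4 missed the threshold (0.75 ± 0.19, adjusted p = 0.053). Neither transcription factor was called. Foxm1 had the smallest value of the 36, 75 to 132.7 CPM with Flag and 95.67 to 124.3 with Tet1CD (0.14 ± 0.09, adjusted p = 0.592, 95% interval -0.05 to 0.33). Mybl2 was 30.16 to 82.01 and 39.31 to 103.9 (0.48 ± 0.16, adjusted p = 0.155), and was called with the number term (0.47 ± 0.11, adjusted p = 0.0133).

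The count at day 8 was 16 without the Tet1CD Vc library 0824, whose macrophage sum was 1319 CPM, 15 without the Tet1CD DKG library 0824 and 14 without the Flag Vc library 0826, with medians of 0.56 to 0.66 over all libraries left out in turn. With only the 12 libraries of day 8 fitted it was 16. The 3 other lists of cell cycle genes were compared, without the 36, in the fit of all 28 libraries. There 1.53% of all genes were higher with Tet1CD at day 8, and 5% with the number term. Of 37 other G2 and M phase genes 11 were higher with Tet1CD at day 8 (25 with the number term; median 0.44), led by Kif15 and Sgo1 (both 0.83), of 40 G1 and S phase genes 13 were (28; median 0.40), led by Gins1 (0.96), and of 25 genes that restrain the cycle 3 were with the number term (0 without it by edgeR, 4 at an unadjusted p under 0.05; median 0.05).

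**Figure D5:**
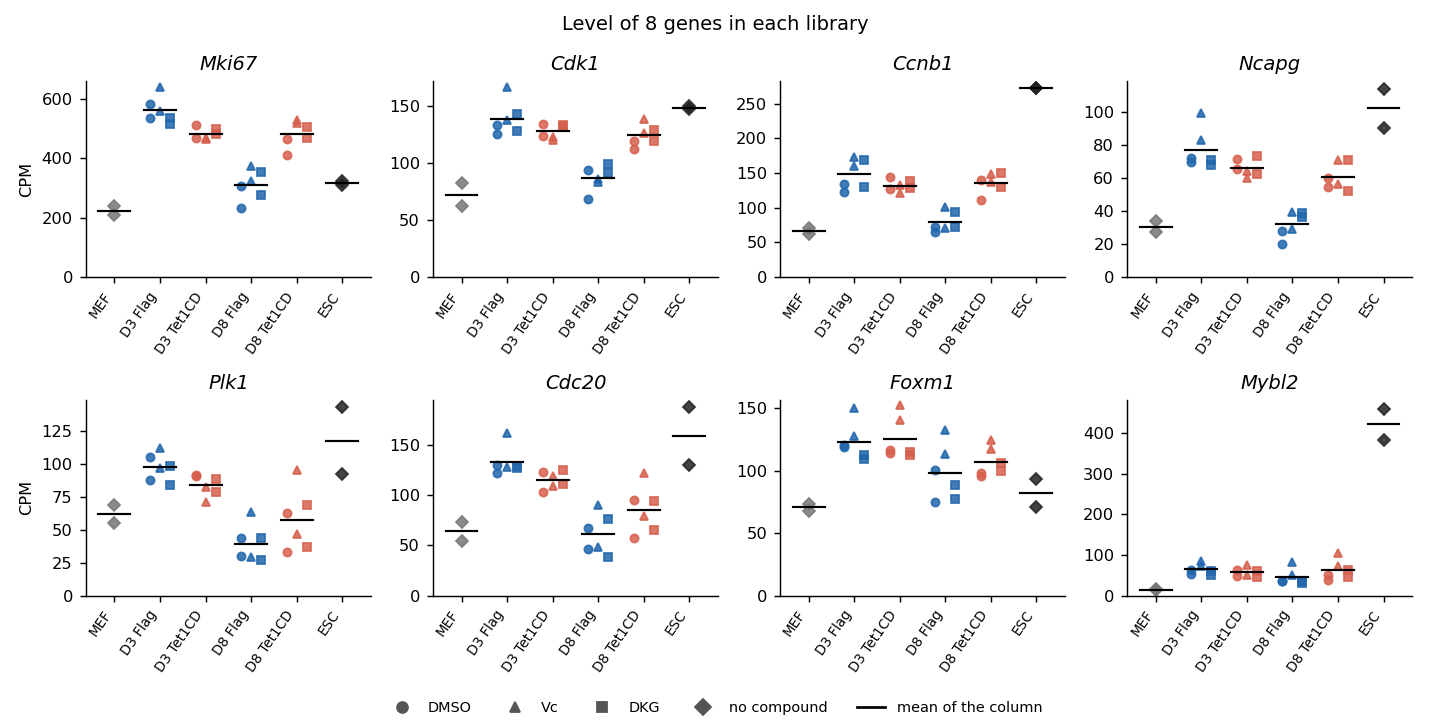
Level in CPM of 8 of the genes in each library, by day and virus, with the medium as the shape and the mean of each column as a bar. For Mki67, Cdk1, Ccnb1 and Ncapg the day 8 Flag libraries lie below the day 8 Tet1CD libraries without overlap, while Plk1, Cdc20, Foxm1 and Mybl2 overlap and Mybl2 is highest in ESC.

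The difference between the days in the effect of Tet1CD was tested as an interaction of day and virus. Of the 36 genes 15 were called, all with a higher Tet1CD effect at day 8, beside 0.288% of all genes, and 33 were with the number as a term within each day (1.68% of all genes). The median was 0.77 on the log2 scale, with all 36 values above 0. Ncapg (1.16 ± 0.17, adjusted p = 0.00554 by edgeR), Bub1b (1.09 ± 0.22), Ttk (1.05 ± 0.18) and Top2a (0.99 ± 0.11) were the highest of the 15. Foxm1 was lowest (0.12 ± 0.13), and its 95% interval ran from -0.15 to 0.39. With the number term Foxm1, Anln and Kif23 alone were not called. By role, 5 of the 7 chromosome proteins and 3 of the 4 cyclin and kinase genes were called, and neither of the passenger complex genes nor of the transcription factors. Without 1 library the count was 5 (day 3 Tet1CD DMSO 0826), 6 (day 3 Flag Vc 0824, day 3 Tet1CD DKG 0824, day 8 Tet1CD DKG 0824, day 3 Flag DKG 0826, day 8 Flag Vc 0826), 7 (day 8 Tet1CD Vc 0824, day 3 Flag DMSO 0826, day 3 Tet1CD DKG 0826, day 8 Flag DKG 0826), 8 (day 3 Tet1CD Vc 0824, day 8 Flag DKG 0824) and 9 (day 8 Tet1CD DMSO 0824). The median stayed between 0.73 and 0.85. Without a filter on low counts, which adds genes to the adjustment, it was 7.

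Between the media few of the genes were called, and none by edgeR without the number term at the settings used throughout. At day 8 all 36 values of Vc over DMSO, over both viruses, were at or above 0, with a median of 0.29. EdgeR called none of the 36, beside 0.181% of all genes that were higher, with 16 at an unadjusted p under 0.05. With the number as a term within each day 3 of the 36 were called, beside 1.13% of all genes that were higher. The 3 were Mybl2 (0.92 ± 0.13, adjusted p = 0.00143), Foxm1 (0.41 ± 0.09, adjusted p = 0.0358) and Incenp (0.45 ± 0.11, adjusted p = 0.0461). DESeq2 called 2, Mybl2 and Foxm1, and limma none. EdgeR without the number term called 1 with DESeq2's size factors and 1 without the filter on low counts. None of the 36 was called for a difference between the days in the effect of Vc over DMSO. Of all genes 0% were higher in that test, and 2 of the 36 were at an unadjusted p under 0.05.

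Mybl2 at day 8 was 35.18 and 36.32 CPM with Flag and DMSO, and 82.01 and 51.34 with Flag and Vc. With Tet1CD it was 50.36 and 39.31 with DMSO and 103.9 and 72.2 with Vc, so that with each virus both Vc libraries lay above both DMSO libraries. Foxm1 was 75 and 100.5 with Flag and DMSO and 113.4 and 132.7 with Vc, and 95.67 and 98.03 with Tet1CD and DMSO and 117.4 and 124.3 with Vc. These 2 genes, the transcription factors of the list, had the smallest values from day 3 to day 8. Against DKG, Vc gave none of the 36 at day 8 without the number term (0.101% of all genes higher, 6 at an unadjusted p under 0.05). With the term it gave Mybl2 (0.83 ± 0.13, adjusted p = 0.00477, 0.61% of all genes higher), as by DESeq2. Without the Tet1CD Vc library 0826, 2 genes were called for Vc over DMSO and 1 for Vc over DKG, and without the Flag Vc library 0826, 1 was for Vc over DMSO.

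At day 3 Vc over DMSO had a median of 0.06 and no call (0.121% of all genes higher, 1 at an unadjusted p under 0.05). Mybl2 was at 0.30 ± 0.19 and Foxm1 at 0.28 ± 0.11. The summed level of the 36 genes was 5515 and 5378 CPM with Flag and Vc against 4574 and 5020 with DMSO, and 4232 and 4367 with Tet1CD and Vc against 4458 and 4466 with DMSO. This difference between the viruses at day 3 was not tested. DKG over DMSO had medians of 0.00 at day 3 and 0.16 at day 8. None of the 36 was called on either day (0% of all genes higher both times, 0 and 2 of the 36 at an unadjusted p under 0.05). None was called for an interaction of DKG with the day (0% of all genes higher, 0 of the 36 at an unadjusted p under 0.05). EdgeR called none of the 36 for a difference between Tet1CD and Flag in the effect of Vc at day 8 (0.0201% of all genes higher). The median was -0.02, with values from -0.56 to 0.30 and 0 of the 36 at an unadjusted p under 0.05. DESeq2 and limma called none in these 5 comparisons. With 2 libraries a group, a missing call between the media does not show that an effect or a difference was absent.

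In ESC most of the 36 genes lay above all reprogramming libraries of day 8. Against untreated MEF 33 were higher, beside 26.8% of all genes, with a median of 1.30 and no gene lower. Against the day 8 cells 32 were higher, beside 27.6% of all genes, and 1, Foxm1, was lower, beside 24.3%. For 27 genes both ESC libraries lay above all 12 day 8 libraries, beside 20.7% of all genes. Mybl2 was 382.3 and 459.6 CPM in ESC, against 13.53 and 15.85 in MEF and 30.16 to 103.9 at day 8, which gave log2 fold changes of 4.84 ± 0.31 and 3.05 ± 0.16 (adjusted p = 9.99e-09 and 1.61e-10 by edgeR). Bub1 was 173.3 in ESC 0819 and 101.3 in ESC 0822 (2.08 ± 0.27 over MEF, 1.83 ± 0.17 over day 8), and Ccnb2 110.6 and 83.45 (1.64 ± 0.17 over day 8). Ccnb1 was 272 and 271.8.

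Foxm1 and Mki67 went another way. Foxm1 was 70.59 and 93.39 CPM in ESC, near the 68.08 and 73.34 of MEF and below most day 8 libraries (75 to 132.7), with 0.21 ± 0.16 over MEF (adjusted p = 0.267) and -0.30 ± 0.12 against day 8 (adjusted p = 0.0463 by edgeR). This call was lost with DESeq2 (adjusted p = 0.0805), with limma on TPM (0.0762), with DESeq2's size factors in edgeR (0.0897), without the filter on low counts (0.109), with only the groups compared (0.155) and without ESC 0819 (-0.12, adjusted p = 0.568). The value over MEF was -0.02 without ESC 0822. Mki67 was 309.4 and 323.1 in ESC, above MEF (0.50 ± 0.15, adjusted p = 0.011) and below all 12 day 3 libraries and all 6 day 8 Tet1CD libraries. Against day 8 it was -0.28 ± 0.12 (adjusted p = 0.0543), and it was called with the number term (adjusted p = 0.0107). The fibroblast sum differed between the 2 ESC libraries, 16150 and 4576 CPM, and the counts without ESC 0822 were 32 over MEF and 33 against day 8. Fitted with only MEF and ESC, 15 genes were called over MEF.

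Within a day the library numbers moved with some of the 36 genes, as they did with many of all genes tested. In the 6 groups of day 8 the 0824 library was higher than the 0826 library for 20 to 30 of the 36 genes. This count was not made over all genes. The median difference of 0826 from 0824 over the 36 ran from -0.07 to -0.29. In a test of the numbers over the 12 libraries of day 8, 15 of the 36 were lower in 0826 and 2 were higher, where 40.5% of all genes tested differed. At day 3 1 was lower and 1 higher, where 16.5% did. Sequence shared with other genes was a small part of each gene: at most 2.88% of the 50-base words of a gene's transcripts (Ncapd2) were shared, and 1.61% for Foxm1, all with Tex52.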

How the data were processed

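RNA was taken with Trizol and 1 ug of total RNA went into Illumina TruSeq libraries, per the labels' protocols. The authors aligned reads to mm10 with Bowtie and quantified genes with RSEM, per the submitters' processing notes; no source used here gives versions or strand. The deposited gene tables hold RSEM expected counts and TPM, per the file headers. Expected counts were rounded, and totals ran from 3953297 to 6818060 per library. Of 29267 gene identifiers 28756 matched GENCODE mouse release 21, and at most 0.392% of a library's counts had no name. The 28 libraries of 14 groups with 2 libraries each entered 1 fit in edgeR 4.0.16 (R 4.3.3; TMM scaling, filterByExpr, quasi-likelihood test, Benjamini-Hochberg adjustment over 14914 genes, threshold 0.05) for 22 comparisons. The 3 single MEF libraries entered only as an added reference, chosen after seeing the data.

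Same-numbered libraries deviated together within a day (r 0.356 to 0.504 over 15 pairs at day 3, 0.345 to 0.687 over 15 at day 8) and less across days (-0.008 to 0.178 over 36 pairs), and MEF libraries with others by -0.01 to 0.305 (12 pairs). The pairing therefore comes from the data and not from the labels. A fit with the number as a term within each day was an alternative, beside 1 with the number over all days, DESeq2 1.42.0, its size factors in edgeR, no filter, only the groups compared, limma 3.58.1 on log2(TPM + 1), and each library left out in turn. By a fixed rule, levels are given for a list of genes from each role (such as Mki67, Cdk1, Plk1 and Mybl2), beside the genes with the largest or smallest change and those that went against the rest; other genes were named after their values were seen. The 36 genes, the other lists and the tests were chosen with earlier results of these data known. The fit without a library term was tested on simulated data for day 8 against day 3 over all arms, with no effect of the library number. The single arms, the interactions and the fits with the number term were not tested in this way. Intervals are 95%.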

Additional observations from a re-analysis of the deposited data

Results flagged for a closer look

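For 15 of the 36 genes, beside 0.288% of all genes, the value of Tet1CD over Flag was higher at day 8 than at day 3. EdgeR's test of the interaction itself called them, and this is what put them here. The median of Tet1CD over Flag for the 36 was -0.20 at day 3 and 0.60 at day 8, and the interaction takes in both. The count was 7 without a filter on low counts, and it moved with single libraries left out, as given above. In log2 units the interaction was 1.16 for Ncapg, 0.99 for Top2a, 0.86 for Mki67, 0.72 for Ncapd2 and 0.65 for Smc2 among the chromosome proteins. It was 0.94 for Ccnb1, 0.77 for Ccna2 and 0.63 for Cdk1 among the cyclins and their kinase, and 1.09 for Bub1b and 0.84 for Mad2l1 in the checkpoint. The kinases Ttk and Aurkb stood at 1.05 and 0.74, the spindle genes Kif11 and Nusap1 at 0.87 and 0.86, and Cenpa at 0.96.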

How the results depend on the processing

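Over 22 comparisons, 319 recounts of called genes under another setting stayed within 1.5 times the main count and 59 did not. The 319 include recounts of 0 where the main count was 0, which say little about the stability of the other counts. In the 3 Flag arms from day 3 to day 8 every fit with 1 library left out moved. Single-gene values were compared for 60 results, each a chosen gene in 1 comparison. With 1 library left out, only the lowest and the highest value of each result entered. Calls lost in the other such fits are therefore not counted. Of the values compared, 503 kept direction and call, 18 lost a call, 31 gained one and 1 reversed: Foxm1 in ESC over MEF ranged from -0.02 to 0.40 with 1 library left out. For the others that moved, the cause was not tested.

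With the replicate block (the library number as a term over all days), 22 genes were called with Flag and DKG from day 3 to day 8, 1 for Vc over DMSO at day 8 and 1 for Vc over DKG. With the block within each day, the counts from day 3 to day 8 were 35, 32 and 31 with Flag (DMSO, Vc, DKG), and 3 and 1 with Tet1CD (DMSO, DKG). They were 3 for Vc over DMSO, 1 for Vc over DKG, 1 for Tet1CD at day 3 and 33 for the interaction of day and Tet1CD. The block moved no other count of calls by over 1.5 times.

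DESeq2 called 22 with Flag and DKG, 2 for Vc over DMSO, 1 for Vc over DKG and 24 for the interaction. Its size factors in edgeR gave 1 for Vc over DMSO, and no filter gave 1 for Vc over DMSO and 7 for the interaction. With only the groups compared, and so fewer libraries, the counts were 0 in all 3 Flag arms, 2 and 16 for Tet1CD at day 3 and day 8, 23 for the interaction and 15 for ESC over MEF. Limma on TPM gave 9 with Flag and DKG.

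With 1 library left out, counts ran from 7 to 19 for day 8 over MEF, from 2 to 8, 0 to 6 and 0 to 1 in the Flag arms (DMSO, Vc, DKG), from 14 to 25 for Tet1CD at day 8, from 5 to 16 for the interaction, from 0 to 2 for Vc over DMSO and from 0 to 1 for Vc over DKG. The median of all genes moved from 0.05 and 0.07 for day 3 and day 8 over MEF to 0.15 for both with limma. It moved to 0.13 for day 8 without a filter, and to 0.23 and 0.26 against MEF kept in medium. Against that reference the median of the 36 was 0.77 at day 3 and 0.26 at day 8. At day 8 it was thus the same as that of all genes. With limma the median of all genes was -0.11 for ESC against day 8. The 2 libraries of each group limit what the arms can show.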
